A study of Mus musculus with 23 samples.

Results

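The 10 genes described here mark the gas-exchange surface of the lung: Sftpc, Sftpb, Sftpa1, Sftpd, Ager, Lamp3, Slc34a2, Napsa, Rtkn2 and Hopx. They were chosen by name as genes of the alveolar epithelium and its surfactant, and all 10 were found among the 37620 gene identifiers of 23 libraries of total RNA from ultraviolet-induced mouse melanoma. Lung metastases (2 libraries, lung 3 and lung 4) and node metastases (7 libraries, nodes 3, 4, 5, 6, 7a, 7b and 8, labelled lymph, brachial, cervical or inguinal) came from mice labelled Nme1+/- / Nme2+/-. HPN primaries (7 libraries, 1 to 7) are primary melanomas of that same genotype, and HP primaries (7 libraries, 1, 3, 4, 5, 6, 7 and 9) come from mice wild type for both genes. Every metastasis therefore carries the mutated alleles, and no HP metastasis is among the libraries. The labels name no other allele, no sex and no age, and they do not say whether primaries of 1 group come from separate animals, so p-values reflect how much the samples at hand vary, part of which may be technical. Nodes 7a and 7b, numbered as 1 mouse, entered tests as their sum, which left 6 node samples.

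The alveolus is lined by flat type 1 cells, across which gas diffuses, and by cuboidal type 2 cells, which make surfactant, a film of lipid and protein that keeps the air sacs from collapsing. Type 2 cells store surfactant in lamellar bodies and secrete it, and type 2 cells also renew the lining after injury. Outside the lung, Hopx is also known from skin and Napsa from kidney, so not every gene of the list is particular to the alveolus. A bulk library cannot tell fewer cells of a type from less RNA per cell.

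Upstream sequences are shown for 4 of the 10 genes, because 3 of them belong to genes near 0 in most libraries but lung 4, and the fourth to Slc34a2, which also had counts in primary tumours. Each is the 250 bases before a RefSeq start site on GRCm38.p6, a later build than the mm9 named in the submitters' processing notes. Capitals mark every CG pair, the site of DNA methylation. The windows are chr6:72304360-72304609 (+ strand) for Sftpb, chr14:41131538-41131787 (+ strand) for Sftpa1, chr16:19706366-19706615 (- strand) for Lamp3 and chr5:53049103-53049352 (+ strand) for Slc34a2.
Sftpb: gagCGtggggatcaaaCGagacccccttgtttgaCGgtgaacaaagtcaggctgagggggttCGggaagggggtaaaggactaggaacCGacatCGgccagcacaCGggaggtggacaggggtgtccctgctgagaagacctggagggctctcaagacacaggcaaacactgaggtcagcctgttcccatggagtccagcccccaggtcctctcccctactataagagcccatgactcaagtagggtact
Sftpa1: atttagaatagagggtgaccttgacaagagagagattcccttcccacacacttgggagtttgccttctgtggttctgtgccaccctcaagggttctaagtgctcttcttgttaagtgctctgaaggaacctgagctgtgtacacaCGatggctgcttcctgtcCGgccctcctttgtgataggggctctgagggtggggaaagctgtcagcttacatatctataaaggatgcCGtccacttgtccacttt
Lamp3: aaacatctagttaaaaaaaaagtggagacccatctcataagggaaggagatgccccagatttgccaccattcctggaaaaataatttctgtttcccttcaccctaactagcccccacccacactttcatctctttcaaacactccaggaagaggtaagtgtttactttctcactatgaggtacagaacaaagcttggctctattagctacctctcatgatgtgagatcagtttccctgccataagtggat
Slc34a2: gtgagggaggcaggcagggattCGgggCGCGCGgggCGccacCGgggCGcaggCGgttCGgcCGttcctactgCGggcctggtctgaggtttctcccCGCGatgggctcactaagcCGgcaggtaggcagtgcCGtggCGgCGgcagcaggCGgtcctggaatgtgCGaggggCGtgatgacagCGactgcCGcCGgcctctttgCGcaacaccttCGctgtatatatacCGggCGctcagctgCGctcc
The window of Slc34a2 held 28 CG pairs, against 7 in Sftpb, 3 in Sftpa1 and 0 in Lamp3, and the median of 32851 windows was 6. Observed over expected CG content was 0.943 for Slc34a2, which is above 91.0% of all windows, and 0.332 for Sftpb, 0.192 for Sftpa1 and 0 for Lamp3. The table held 7 windows for 6 of the 10 genes, with 2 for Hopx. The second highest value belonged to a window of Hopx (0.869, chr5:77095268-77095517, - strand), whose other window had 0.466, and Ager had 0.149. The 6 letters CTCAAG, known as a core of binding sites of Nkx2-1, a transcription factor of lung and thyroid, were searched on both strands (CTTGAG on the other). This motif was chosen after the sequences had been read. It occurred in the window of Sftpb in 2 places, in that of Sftpa1 in 1 place and in 1 window of Hopx in 1 place, and it occurs in 13.3% of all 32851 windows. None of the windows of Ager, Lamp3 and Slc34a2 holds these letters, which says only that they are not in this stretch.

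Counts in genes ran from 18870759 to 89481553 per library, with 28543393 in lung 4 and 31213391 in lung 3. The labelled tissue is melanoma, and the summed level of 12 melanocyte genes was 30248 CPM (counts scaled to a common library size with TMM factors over all 23 libraries) in lung 4 and 43826 CPM in lung 3, against 9506 to 75852 CPM in the HPN primaries. Lung 4 and lung 3 stood far apart in the alveolar genes, so every lung comparison below is also given without each of them. The deposited summary has an entry for reads of low alignment quality, which is above 0 in 8 libraries and 0 in the other 15, both lungs included. What this entry marks is not given in the sources used here. Napsa, Rtkn2 and Hopx overlap genes on the opposite strand over 18.9%, 3.89% and 27.2% of their exonic bases. The libraries are directional per the labels, and whether the counting used the strand is not given in the sources used here, so reads of the antisense partner cannot be told apart. Hopxos, the partner of Hopx, had at most 33 counts in any library.

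**Figure D1:**
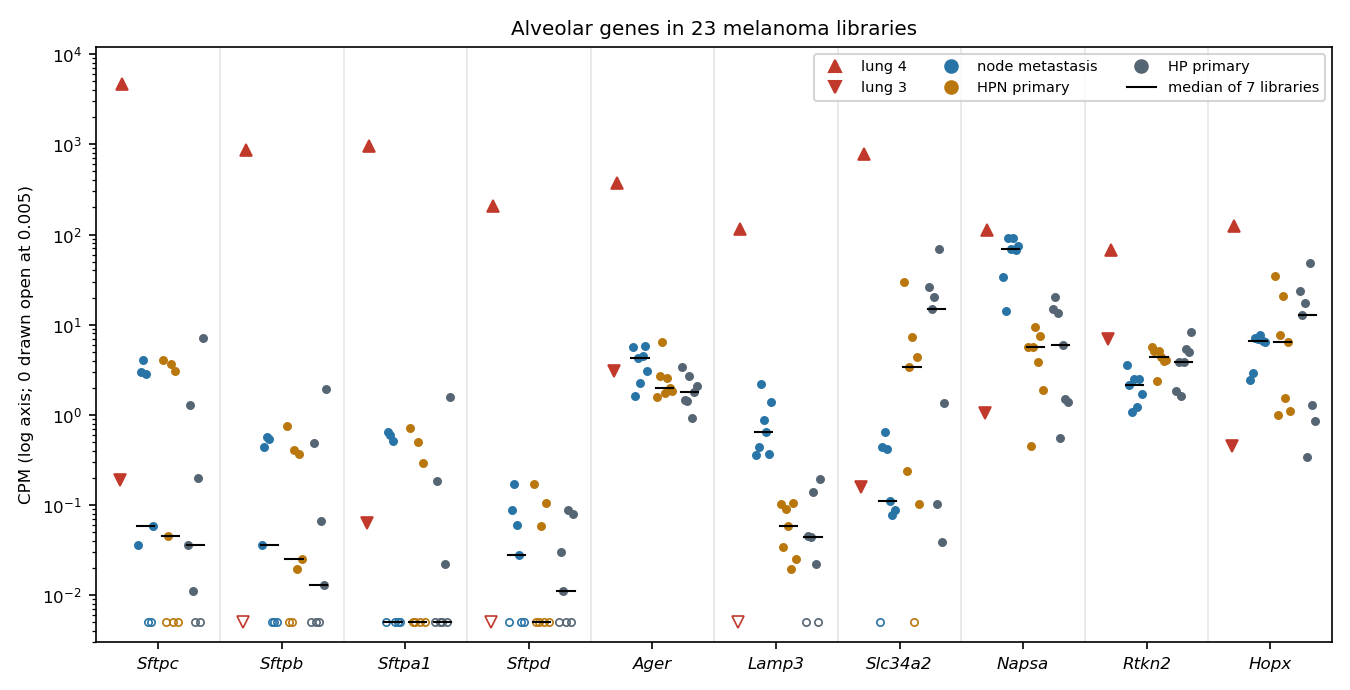
Level of each of the 10 genes in every library in CPM on a log axis, with lung 4 (upward triangles), lung 3 (downward triangles), node metastases, HPN primaries and HP primaries from left to right within a gene, a bar at the median of each 7 libraries, and 0 counts drawn open. Lung 4 is the highest of the 23 libraries for all 10 genes, from 67.1 CPM (Rtkn2) to 4621 CPM (Sftpc), while lung 3 lies within the range of the 21 node and primary libraries.

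Counts of the alveolar genes were high in lung 4 and few in lung 3. The 10 genes together took 0.846% of all gene counts in lung 4 (95% Wilson interval 0.842 to 0.849), and 0.00119% in lung 3 (0.00107 to 0.00131). In the other 21 libraries that share ran from 0.000773% in HP primary 5 to 0.0138% in node 5. Intervals of this kind cover counting error only. Lung 3 thus lay inside the range of the primaries and nodes, and lung 4 lay outside it.

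Sftpc, Sftpa1 and Sftpb had the highest CPM of the 10 genes in lung 4, and Sftpd, the other surfactant protein gene, stood below Slc34a2 and Ager. Sftpc, whose product is the small hydrophobic surfactant protein C made in type 2 cells, had 4621 CPM in lung 4 and 0.192 CPM in lung 3, from 135374 and 6 counts. It ranked 10 by CPM among all genes in lung 4. Sftpb, which encodes surfactant protein B, needed for lamellar bodies and for life after birth, had 872 CPM in lung 4 and 0 counts in lung 3, which makes it at least 9084-fold higher in lung 4 against a floor of 3 counts in lung 3. Sftpa1, a collectin of surfactant that binds microbes, had 959 CPM in lung 4 and 0.0640 CPM (2 counts) in lung 3, a ratio of 14991 (95% exact conditional interval 4149 to 123789). Sftpd, the second collectin of surfactant, had 206 CPM in lung 4 and 0 counts in lung 3, at least 2146-fold higher. For all 4, lung 4 was the highest library by far, and at least 8 of the 21 node and primary libraries had lung 3's level or less.

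Products that type 2 cells use to make and recycle surfactant showed the same split. Slc34a2, the phosphate transporter that takes phosphate back from surfactant lipid, had 786 CPM in lung 4 and 0.160 CPM in lung 3 (ratio 4914, 2106 to 15137). Lamp3, a membrane protein of lamellar bodies that mature dendritic cells also make, had 116 CPM in lung 4 and 0 counts in lung 3, at least 1206-fold higher. Napsa, the aspartic protease napsin A that helps process the precursor of surfactant protein B, had 112 CPM in lung 4 and 1.06 CPM in lung 3 (ratio 106, 75.3 to 154). Of these 3, Napsa is the one with a node library close to lung 4: node 5 had 92.0 CPM, so that lung 4 was 1.22 times the next library.

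The 3 type 1 cell genes had counts in both lungs, with smaller ratios than the surfactant proteins. Ager, the receptor for advanced glycation end products and a membrane protein of type 1 cells, had 376 CPM in lung 4 and 3.04 CPM in lung 3 (ratio 124, 101 to 153). Hopx, a homeodomain protein without DNA binding that marks type 1 cells, had 124 CPM in lung 4 and 0.448 CPM in lung 3 (ratio 277, 165 to 507). Rtkn2, a rhotekin family gene used as a type 1 marker, had 67.1 CPM in lung 4 and 6.88 CPM in lung 3 (ratio 9.75, 8.47 to 11.3). Only Rtkn2 stayed under 10-fold. Summed over the 10 genes, lung 4 was 696 times lung 3 (629 to 773).

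Levels per length order the 10 genes within lung 4. Sftpc had 4469 CPM per kilobase of exon, Sftpb 443 and Sftpa1 335. Ager, the highest type 1 gene, had 176 CPM per kilobase, close to Slc34a2 at 157. Sftpd and Hopx were alike at 85.2 and 81.8 CPM per kilobase, Napsa and Lamp3 had 42.1 and 34.5, and Rtkn2 was lowest at 12.1. With 1 library of this kind, the order has no replicate check.

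Past 10-fold, 9 of the 10 genes were higher in lung 4 than in lung 3, where 7.38% of the 17133 genes with at least 10 counts in either library were, and 0.508% were past 10-fold higher in lung 3. Further lists, chosen with earlier results of these data known, describe what else came with the alveolar genes. Of 20 other type 1 genes 15 were past 10-fold, among them Sec14l3 (238 CPM in lung 4 and 0 counts in lung 3), Akap5 (116 and 0.544 CPM) and the water channel gene Aqp5 (56.9 and 0.192 CPM). Of 19 other type 2 genes 10 were, with the lung chemokine Cxcl15 at 265 CPM in lung 4 and 0 counts in lung 3 and the mucin Muc1 at 40.7 and 0.640 CPM. Abca3, the lipid pump of lamellar bodies, was not, at 250 CPM in lung 4 and 98.7 CPM in lung 3, and its level in the other 21 libraries was 71.7 to 141 CPM.

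Only part of the listed regulators of lung epithelium showed the same split. Nkx2-1 had 35.7 CPM in lung 4 and 0.256 CPM in lung 3, and Foxa2, a second factor of lung epithelium, had 8.19 CPM in lung 4 and 0 counts in lung 3. Of the 12 listed lung epithelial regulators 6 were past 10-fold. Thyroid is another tissue known for Nkx2-1. Of 3 thyroid genes with enough counts to compare 1 was past 10-fold, the anion exchanger gene Slc26a4 (3.31 CPM in lung 4 and 0 counts in lung 3). Tg, which encodes thyroglobulin, had 1.02 CPM in lung 4 and 0.640 CPM in lung 3.

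Airway, mesothelial, endothelial, fibroblast, alveolar macrophage and heart genes were also past 10-fold in lung 4. These were 13 of 14 airway genes, led by the club cell secretoglobin Scgb1a1 (529 CPM in lung 4 and 0 counts in lung 3), 6 of 7 mesothelial genes, 7 of 12 of lung endothelium, 8 of 10 of lung fibroblasts and 7 of 11 of alveolar macrophages. All 10 cardiac muscle genes were, with the cardiac myosin gene Myh6 at 387 CPM in lung 4 and 0 counts in lung 3. Aqp5 and Krt19 stand in more than 1 of these lists. Of keratinocyte genes 0 of 16 and of melanocyte genes 0 of 12 were past 10-fold, near the share over all genes compared (7.38%).

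The routes for making surfactant lipid and folding surfactant proteins moved less than the proteins themselves. Of 13 genes of surfactant lipid and clearance 1 was past 10-fold, Adgrf5, a receptor that limits surfactant pools, at 406 CPM in lung 4 and 23.4 CPM in lung 3. The median fold of that list was 2.14, beside 0.968 over all genes compared. Of 9 genes of protein folding and processing 0 were past 10-fold, with a median of 1.20.

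**Figure D2:**
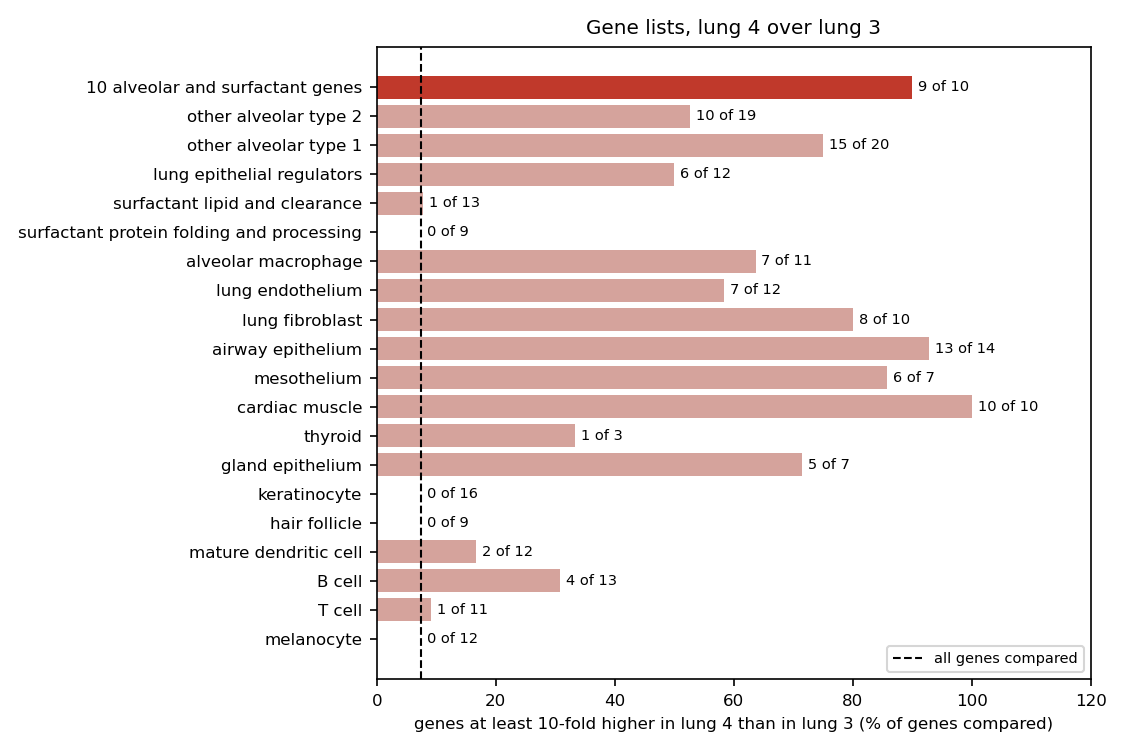
Share of each gene list that was at least 10-fold higher in lung 4 than in lung 3, in percent of the genes with at least 10 counts in either library, with the count beside each bar and a dashed line at the share of all genes (7.38%). The 10 alveolar genes and the other type 1, airway, mesothelial, fibroblast and cardiac lists stand at or above 75%. The keratinocyte, hair follicle, melanocyte and surfactant protein folding and processing lists stand at 0.

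As a group, the lung metastases were set against the HPN primaries to ask what differs at the lung site. Sftpa1, Sftpb, Lamp3, Ager and Rtkn2 were called higher by edgeR's quasi-likelihood test with Benjamini-Hochberg adjustment over 19152 genes, 5 of the 9 genes tested. The background of higher calls in that comparison was 0.251%, with 0.0157% lower and 0.266% in either direction. Sftpd did not pass the filter on low counts and was not tested.

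Lamp3 was at 116 and 0 CPM in the lungs and ran from 0.0194 over a median of 0.0582 to 0.105 CPM in the HPN primaries (log2 9.86, SE 1.38, adjusted p = 0.0108). Sftpa1, at 959 and 0.0640 CPM in the lungs, ran from 0 over a median of 0 to 0.719 CPM in the HPN primaries (log2 11.15, SE 1.81, adjusted p = 0.0193). Sftpb, at 872 and 0 CPM in the lungs, ran from 0 over a median of 0.0255 to 0.753 CPM there (log2 10.94, SE 1.77, adjusted p = 0.0193). For each of the 3, lung 4 was above every HPN primary and lung 3 was inside or below their range, so the groups overlapped.

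Ager had 376 and 3.04 CPM in the lungs and 1.57, 1.98 and 6.46 CPM (lowest, median, highest) in the HPN primaries (log2 6.17, SE 0.88, adjusted p = 0.0119). Rtkn2 had 67.1 and 6.88 CPM in the lungs and 2.37, 4.39 and 5.72 CPM in the HPN primaries (log2 3.09, SE 0.52, adjusted p = 0.0250). Rtkn2 is the one called gene for which both lungs were above all 7 HPN primaries. The 4 other tested genes did not pass. Their log2 differences were 10.54 for Sftpc (adjusted p = 0.0747), 5.92 for Slc34a2 (adjusted p = 0.311), 3.54 for Napsa (adjusted p = 0.255) and 2.56 for Hopx (adjusted p = 0.690).

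The calls against primaries rest on lung 4. Without lung 4, the log2 difference was -6.03 for Sftpb, -1.69 for Sftpa1, -4.20 for Lamp3, 0.18 for Ager and 0.65 for Rtkn2. Without lung 3, lung 4 alone stands for the group, above every HPN primary in all 10 genes. Either fit has 1 lung library, which gives no spread of its own, so calls are not counted. Leaving out HPN primary 6 left Lamp3 alone, and leaving out HPN primary 2, 3, 4 or 5 left Ager and Lamp3, while Rtkn2 alone was lost without HPN primary 7. Among the libraries with a low-quality entry of 0, none of the 5 passed (adjusted p = 0.105 to 0.140), at log2 differences of 3.07 for Rtkn2, 6.09 for Ager, 9.71 for Lamp3, 10.72 for Sftpb and 10.90 for Sftpa1. With that entry as a term 4 of the 5 were called, and Sftpa1 was not (log2 10.90, adjusted p = 0.0527). The fit with title number as a replicate block held lung, node and HPN primary samples whose number occurs in more than 1 group. Lungs and primaries share 2 of these numbers. That fit called 0 genes (1134 at an unadjusted p under 0.05). In it the 5 genes had log2 differences of 2.64 to 11.42, with adjusted p of 0.449 to 0.805.

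Other genes of the alveolus were tested in the same fit. In lung against HPN primary, 2 of 18 tested other type 2 genes rose, Muc1 (log2 5.0, adjusted p = 0.0180) and Cxcl15 (log2 10.14, adjusted p = 0.0219), and 2 of 19 other type 1 genes rose, Sec14l3 (log2 10.55) and Akap5 (log2 6.47; adjusted p = 0.0193 for each). Of 10 lung epithelial regulators 0 passed, the nearest being Foxa1 at log2 8.07 (adjusted p = 0.0723). Prdx6, a lipid-repair enzyme of type 2 cells and macrophages, rose among 12 tested genes of surfactant lipid (log2 1.65, adjusted p = 0.0491). The median log2 difference was 6.17 for the 9 members, 3.63 for other type 1 genes, 0.77 for other type 2 genes and -0.06 for all genes tested.

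Lists of other tissues of the chest differed in how many genes were called. Cardiac muscle genes rose in 4 of 7 tested (Myh6, log2 10.81, adjusted p = 0.0193), mesothelial genes in 4 of 7 (Msln, log2 9.24, adjusted p = 0.0105), airway genes in 3 of 8 (Scgb3a1, log2 9.57, adjusted p = 0.0193) and alveolar macrophage genes in 2 of 11 (Chil3, log2 6.66, adjusted p = 0.0455). Of lung endothelium 1 of 12 rose (Foxf1, log2 6.01, adjusted p = 0.0105), and of lung fibroblasts 0 of 9 passed, 3 of them at an unadjusted p under 0.05. The summed level of the 10 cardiac genes was 967 CPM in lung 4 and 2.5 CPM in lung 3, against 1.59 to 8.28 CPM in the HPN primaries. The 14 airway genes summed to 1539 CPM in lung 4 and 3.39 CPM in lung 3, against 4.48 to 29.8 CPM. Their part in the result for the alveolar genes was not tested.

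The comparison of the lung metastases with the node metastases asks how 2 sites of spread differ. It uses the same 2 lungs as the comparison with primaries, so neither is independent of the other. In it 7 of 9 tested genes were higher in lung (Sftpc, Sftpb, Sftpa1, Ager, Lamp3, Slc34a2 and Rtkn2), where 1.96% of all genes tested were, with 3.09% lower and 5.04% in either direction.

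Rtkn2 had the smallest p among them: 67.1 and 6.88 CPM in the lungs, against 1.08, 2.14 and 3.58 CPM (lowest, median, highest) in the nodes (log2 4.15, SE 0.55, adjusted p = 0.0111). Both lungs were above every node. Slc34a2 had 786 and 0.160 CPM in the lungs, against 0, 0.112 and 0.648 CPM in the nodes (log2 10.57, SE 2.18, adjusted p = 0.0257), and Sftpc had 4621 and 0.192 CPM, against 0, 0.0583 and 4.02 CPM (log2 10.54, SE 2.39, adjusted p = 0.0318). For both genes lung 3 fell among the nodes.

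Sftpb had 872 and 0 CPM in the lungs, against 0, 0.0361 and 0.561 CPM in the nodes (log2 10.85, SE 1.89, adjusted p = 0.0167), and Sftpa1 had 959 and 0.0640 CPM, against 0, 0 and 0.644 CPM (log2 10.82, SE 1.91, adjusted p = 0.0167). Ager had 376 and 3.04 CPM in the lungs, against 1.64, 4.23 and 5.82 CPM in the nodes (log2 5.73, SE 0.92, adjusted p = 0.0140). In all 3, lung 4 was above every node and lung 3 was within their range. Lamp3 had 116 and 0 CPM in the lungs, against 0.361, 0.644 and 2.20 CPM in the nodes (log2 5.96, SE 1.26, adjusted p = 0.0270), so that lung 3 was below every node.

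Napsa was at 112 and 1.06 CPM in the lungs, against 14.3, 69.6 and 92.0 CPM in the nodes, with a log2 difference of -0.05 (SE 1.11, adjusted p = 0.985). One lung lay above all nodes and the other below them all. Hopx had 124 and 0.448 CPM in the lungs, against 2.46, 6.60 and 7.68 CPM in the nodes, and did not pass edgeR's test (log2 3.55, SE 1.28, adjusted p = 0.115), with the same split of the lungs. DESeq2 called Hopx, at log2 3.56 (adjusted p = 0.0498).

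Against nodes too, lung 4 decided the calls. Without it the log2 difference was -3.07 for Sftpc, -6.22 for Sftpb, -2.10 for Sftpa1 and -8.10 for Lamp3. It was -0.77 for Slc34a2, -0.27 for Ager and 1.68 for Rtkn2. Without lung 3, lung 4 alone stands for the group, above every node in all 10 genes. Calls with 1 lung library are not counted. Without node 6, 7 or 8, 4 of the 7 remained: Sftpb, Sftpa1, Ager and Rtkn2. Without node 5, Sftpc was lost (adjusted p = 0.0510). With title number as a replicate block 0 genes were called (2328 at an unadjusted p under 0.05; adjusted p = 0.156 to 0.520 for the 7), and among the libraries with a low-quality entry of 0 none of the 7 passed (adjusted p = 0.0863 to 0.116). Among other alveolar genes, 12 of 19 type 1 genes rose, with Gprc5a at log2 6.99 (adjusted p = 0.0177) and Col4a3, a collagen of the alveolar basement membrane, at log2 6.30 (adjusted p = 0.0233), and 4 of 18 type 2 genes rose.

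Surfactant protein counts outside lung 4 were few but not evenly spread. Sftpc ran to 4.02 CPM in the nodes (median 0.0583), 4.07 CPM in the HPN primaries (median 0.0455) and 7.09 CPM in the HP primaries (median 0.0362), and 7 of these 21 libraries had 0 counts. A count of 0 allows up to 3 counts. Sftpb reached 0.561, 0.753 and 1.95 CPM in the nodes, HPN primaries and HP primaries, and Sftpa1 0.644, 0.719 and 1.58 CPM. Sftpd had at most 5 counts in any of them.

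Libraries fell into 2 sets by these counts, a division at 100 summed counts that was drawn after the values were seen. In 8 libraries (nodes 4, 5 and 6, HPN primaries 1, 4 and 6, HP primaries 3 and 9) the 4 genes had 124 to 543 counts together, and in the other 14, lung 3 among them, 0 to 17. In raw counts, the 8 libraries held between 0.0636% and 0.278% of lung 4's 195046 counts of these genes. By CPM, which allows for library size, they held 0.0298% (HP primary 3) to 0.161% (HP primary 9) of lung 4's sum. Node metastases and primaries of both genotypes stand in each set, so the division crosses the study's groups.

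The make-up of these counts was set beside that of lung 4. Sftpc made up 69.4% of the counts of the 4 genes in lung 4 (95% Wilson interval 69.2 to 69.6), and 64.6% (HP primary 3) to 80.1% (HPN primary 6) in the 8 libraries, 71.0% when pooled. The interval of lung 4's share lay inside that of 6 of the 8 libraries, and HPN primaries 4 and 6 lay above it, with intervals from 72.5% and 72.9% upward. Sftpa1 made up 14.4% in lung 4 and 12.6% in the 8 pooled, Sftpb 13.1% and 14.7%, and Sftpd 3.09% and 1.69%. The pool hides a spread between libraries: Sftpb made up 8.75% in HPN primary 4, 18.2% in HP primary 9 and 24.6% in HP primary 3 (32 of 130 counts). As a description, 6 other genes high in lung 4, chosen after values were seen (Cxcl15, Cldn18, Sec14l3, Scgb1a1, Bpifa1 and Myh6), had 44 to 285 counts together in the 8 libraries and 0 to 48 in the other 14. The sets overlapped in this sum, since HP primary 4 (48 counts) was above node 5 (44) and node 6 (45). The low-quality entry was 0 in 6 of the 8 and in 8 of the 14. The cause of these counts was not tested.

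**Figure D3:**
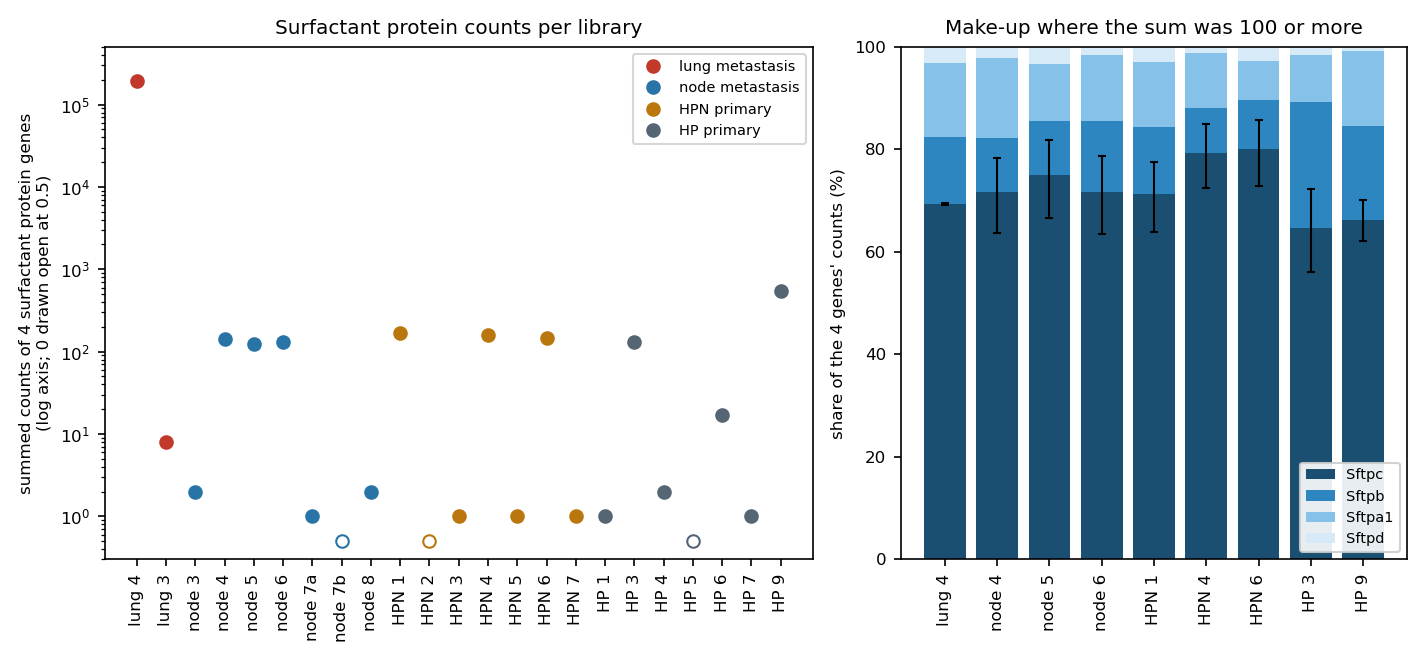
Left, summed counts of Sftpc, Sftpb, Sftpa1 and Sftpd in each of the 23 libraries on a log axis; right, the share of each gene in that sum where it was 100 or more, with 95% Wilson intervals on Sftpc. Lung 4 stands at 195046 counts, 8 libraries at 124 to 543 and 14 at 0 to 17, and Sftpc takes 64.6 to 80.1% of the sum in the 8 libraries, beside 69.4% in lung 4.

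The node metastases were set against the HPN primaries to ask what differs at the lymph node. Napsa and Lamp3 rose, 2 of the 9 genes tested, where 12.7% of all genes tested rose and 9.81% fell. Napsa had 14.3, 69.6 and 92.0 CPM (lowest, median, highest) in the nodes, against 0.448, 5.60 and 9.38 CPM in the HPN primaries (log2 3.60, SE 0.82, adjusted p = 0.00717). Every node was above every HPN primary. Lamp3 had 0.361, 0.644 and 2.20 CPM in the nodes (10 to 51 counts), against 0.0194, 0.0582 and 0.105 CPM in the HPN primaries (1 to 4 counts; log2 3.90, SE 1.11, adjusted p = 0.0219). Again the groups did not overlap, but at a level of few counts. How many of all genes separate nodes from HPN primaries in this way was not counted.

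With title number as a replicate block over the 5 shared numbers, Napsa was at log2 3.44 (adjusted p = 0.102) and Lamp3 at log2 4.0 (adjusted p = 0.171), and neither was called. Lamp3 was also lost without node 5 (log2 3.49, adjusted p = 0.0532) and with the mean of the keratinocyte genes as a covariate (log2 4.21, adjusted p = 0.0943), a setting chosen after the data were seen. Among the libraries with a low-quality entry of 0 neither passed (adjusted p = 0.0629 for Napsa and 0.108 for Lamp3).

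Lymphoid genes also rose in the nodes, the B cell and T cell lists more fully than the dendritic cell list. Of 14 T cell genes 13 rose. Their sum was 136 to 747 CPM in the nodes, against 23.8 to 90.3 CPM in the HPN primaries. All 13 B cell genes rose in the nodes, with Cd79b, a chain of the B cell receptor complex, at log2 7.57 (adjusted p = 3.66e-05), and their sum was 293 to 2783 CPM in the nodes, against 5.62 to 23.2 CPM in the HPN primaries. Of 12 mature dendritic cell genes 4 rose: the homing receptor Ccr7 (log2 5.05, adjusted p = 0.000161), Il4i1 (log2 4.27), Ccl22 (log2 3.29) and Relb (log2 0.92). The sum of the 12 was 235 to 668 CPM in the nodes and 181 to 292 CPM in the HPN primaries, so the groups overlapped. In the HP primaries it was 192 to 612 CPM, where Lamp3 reached at most 0.197 CPM. Node 4 was the lowest node for Napsa and for the B cell and T cell sums. Node 5 was the highest for Napsa and the B cell sum, and node 6 for the T cell sum. The part of these lists in the result was not tested. Lung 3 had a B cell sum of 5.53 CPM and 1.06 CPM of Napsa, and lung 4, with 28.8 CPM of B cell genes, had 112 CPM of Napsa.

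**Figure D4:**
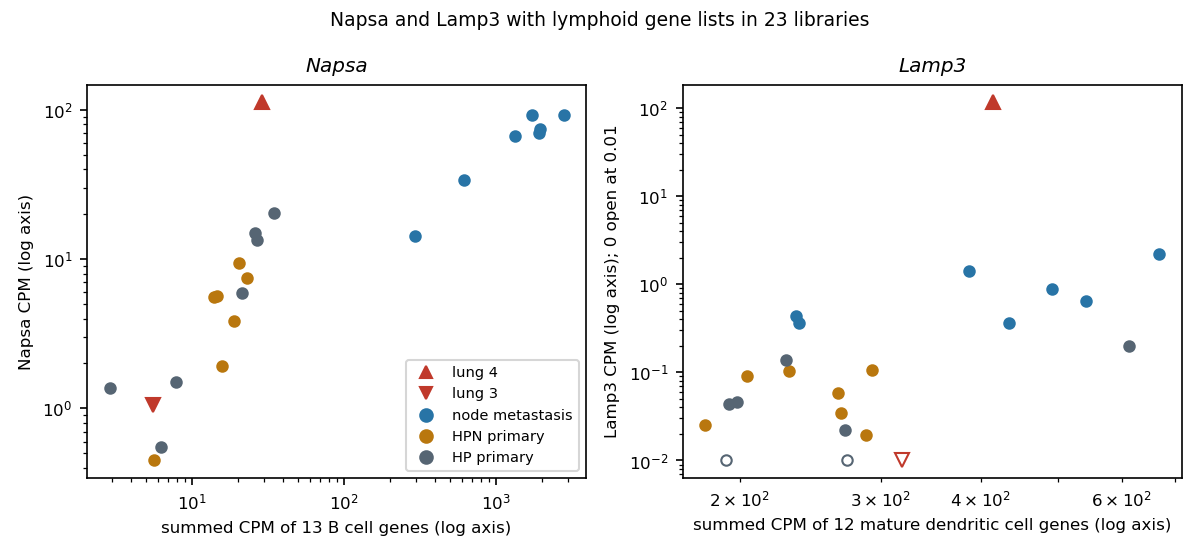
Left, Napsa against the summed level of 13 B cell genes, and right, Lamp3 against that of 12 mature dendritic cell genes, in CPM on log axes with 1 point per library. The 7 node libraries lie at 14.3 to 92.0 CPM of Napsa and 293 to 2783 CPM of B cell genes, above all HPN primaries, and lung 4 lies off that relation at 112 CPM of Napsa with 28.8 CPM of B cell genes.

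The remaining tested genes did not pass edgeR's test between nodes and HPN primaries. Slc34a2 had 0, 0.112 and 0.648 CPM in the nodes, against 0, 3.37 and 29.5 CPM in the HPN primaries (log2 -4.65, SE 1.69, adjusted p = 0.0607). It was called lower with nodes 7a and 7b kept apart (adjusted p = 0.0328) and without HPN primary 5 (adjusted p = 0.0457). Rtkn2 had 1.08, 2.14 and 3.58 CPM in the nodes, against 2.37, 4.39 and 5.72 CPM in the HPN primaries (log2 -1.06, SE 0.42, adjusted p = 0.0828), and the groups overlapped. DESeq2 called Rtkn2 lower in the nodes (log2 -1.05, adjusted p = 0.0481). Hopx had 2.46, 6.60 and 7.68 CPM in the nodes, against 1.0, 6.48 and 34.5 CPM (log2 -0.99, SE 0.98, adjusted p = 0.474). Both Slc34a2 and Hopx spread widely among the primaries, and the nodes lay within or at the low end of that spread.

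Ager was low outside lung 4. It had 1.64, 4.23 and 5.82 CPM in the nodes, 1.57, 1.98 and 6.46 CPM in the HPN primaries and 0.931, 1.81 and 3.40 CPM in the HP primaries, and all 3 groups overlapped. The node difference was log2 0.44 (SE 0.68, adjusted p = 0.656). Sftpc, Sftpb and Sftpa1 had node adjusted p of 0.998, 0.972 and 0.896 at the levels given above.

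The comparison of HPN with HP primaries asks what differs between the genotypes, Nme1+/- / Nme2+/- and wild type. Of the 10 genes 5 passed the filter there, the others being at or near 0 in most primaries, and 0 of the 5 were called, where 0% of 16578 genes were. The edgeR test gave 477 genes and DESeq2 851 at an unadjusted p under 0.05, 0 of the 5 among them by either tool. Slc34a2 had 0, 3.37 and 29.5 CPM in the HPN primaries, against 0.0393, 14.9 and 69.5 CPM in the HP primaries (log2 -1.54, SE 1.5, adjusted p = 0.951). Hopx had 1.0, 6.48 and 34.5 CPM in the HPN primaries, against 0.345, 12.7 and 48.0 CPM in the HP primaries (log2 -0.51, SE 1.07, adjusted p = 0.953). Napsa, Ager and Rtkn2 had log2 differences of -0.80 (SE 0.79), 0.42 (SE 0.38) and 0.06 (SE 0.34). The ranges overlapped for all 5.

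Among primaries, Slc34a2 and Hopx were high where keratinocyte genes were high. The summed level of 17 keratinocyte genes was 1647 to 26866 CPM in 8 primaries (HPN 1, 3, 4 and 6, HP 1, 3, 4 and 6) and 8.75 to 115 CPM in the other 6, a division at 500 CPM drawn after the values were seen. Slc34a2 ran from 3.37 to 69.5 CPM in the 8 and from 0 to 1.34 CPM in the other 6, and Hopx from 6.48 to 48.0 CPM and from 0.345 to 1.56 CPM. Neither gene overlapped between these sets, and the share of all genes without overlap was not counted. Napsa, which ran from 5.60 to 20.2 CPM in the 8 and from 0.448 to 3.85 CPM in the other 6, did not overlap either. The order was turned for Rtkn2 (1.63 to 5.72 CPM and 3.83 to 8.21 CPM), which overlapped, as did Ager (0.931 to 6.46 and 1.81 to 2.73 CPM).

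Sftpc overlapped between these sets. It ran from 0.0110 to 4.07 CPM in the 8, and of the other 6 HP primary 9 had 7.09 CPM and the remaining 5 had 0 counts. Of the 8, HPN primary 3 and HP primaries 1 and 4 had 1 count each, which cannot be told from 0. HP primary 6, with the highest keratinocyte sum, had 9 counts. The 8 primaries carry the same title numbers (1, 3, 4 and 6) in both genotypes. With the keratinocyte mean as a covariate, a setting chosen after the data were seen, the genotype difference was log2 0.22 for Hopx (SE 0.44, adjusted p = 0.945), and the node difference turned to log2 1.30 for Slc34a2 (SE 2.24, adjusted p = 0.690) and to log2 1.76 for Hopx (SE 1.21, adjusted p = 0.302).

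**Figure D5:**
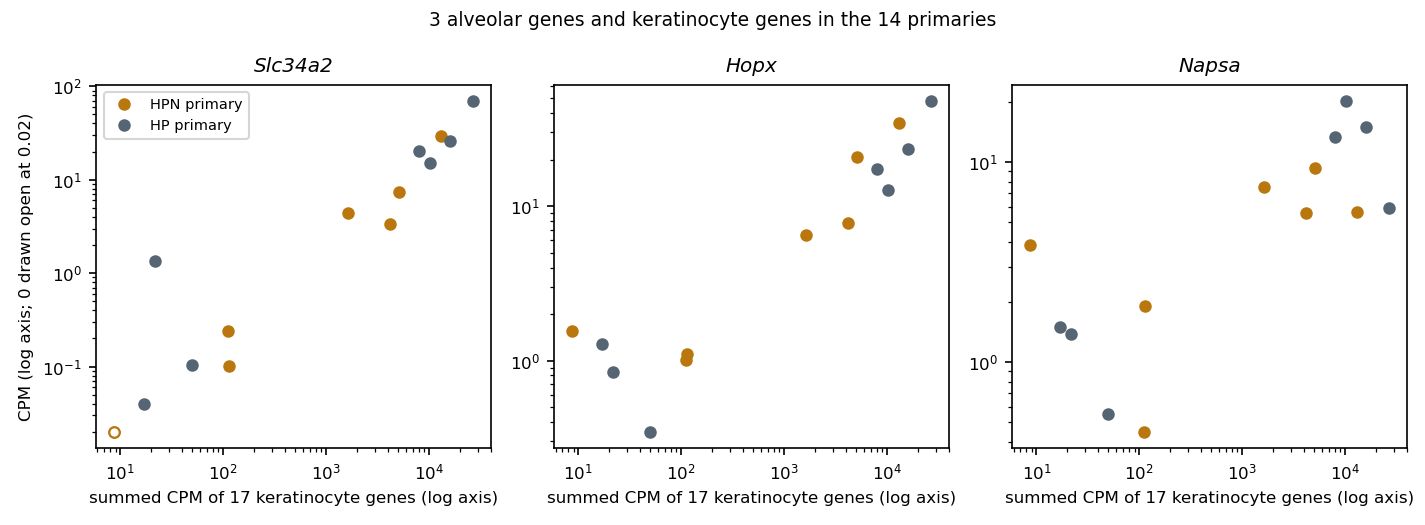
Slc34a2, Hopx and Napsa in each of the 14 primaries against the summed level of 17 keratinocyte genes, in CPM on log axes. Slc34a2 and Hopx lie at 3.37 to 69.5 and 6.48 to 48.0 CPM in the 8 libraries with 1647 CPM or more of keratinocyte genes, and at or under 1.34 and 1.56 CPM in the other 6.

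Genes whose levels ran most like the members were named by a fixed measure, the correlation of log2(CPM + 0.5), as a description with no test. Over all 23 libraries the 10 genes nearest to the mean of the members were Ubxn10, Bpifa1, Myh6, Wfdc2, Dnah3, Prr15l, Cxcl15, Sec14l3, Myo5c and Krt19 (Pearson r 0.959 to 0.969), and each of these was far higher in lung 4 than in any other library. Ubxn10, for example, had 3.62 CPM in lung 4, 0.0640 CPM in lung 3 and at most 0.244 CPM elsewhere. Candidate genes had to pass a cut-off of 1 CPM on mean level, and in lung 3 these 10 genes had at most 0.256 CPM. Their r over the 23 libraries thus rests on lung 4, and it cannot show whether they run with the members among the other libraries. Over the 21 libraries without the lungs, those nearest to Slc34a2 were Fndc9, Macc1, Fam89a, Mal2 and Tmem30b (r 0.978 to 0.981), and those nearest to Hopx were Ston2, Acpp, Casz1, Susd2 and Kank1 (r 0.974 to 0.979). Napsa ran with the blood cell signalling genes Vav1 and Rac2 and with Parvg, March1 and AB124611 (r 0.986 to 0.989). The nearest to Ager was Msh5 (r 0.887) and the nearest to Rtkn2 was Nradd (r 0.832), both lower than for the other 3. The points share library and depth, and the 21 libraries differ in site and in keratinocyte gene level.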

How the data were processed

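Total RNA was purified with the AllPrep Mini kit and made into directional libraries (NEBNext Ultra II), per the labels' protocols. The submitters' processing notes name bcl2fastq 1.8.4, STAR 2.5.3a and the build mm9. The deposited values are raw counts of reads per Ensembl gene by the authors, not normalized. For the counting tool, its version, strand setting and annotation: not given in the sources used here. Summary entries that name no gene (unassigned, low quality, not aligned, not unique) stayed out of library sizes and tests, and counts in genes made up 25.0% to 50.8% of all entries. Symbols and exon lengths came from GENCODE vM21, which matched 87.4% of 37620 identifiers; the unmatched hold 1.70% of counts.

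The genes and lists were chosen with earlier results of these data known. Named genes are the members, up to 4 genes per list with the smallest p in the comparison described, and Nkx2-1, Foxa2, Abca3, Aqp5, Scgb1a1 and Tg, with 1 further gene of that rule not reported here; Adgrf5 was named after its values were seen. CPM used TMM factors over 23 libraries. Tests used edgeR 4.0.16 (quasi-likelihood, filterByExpr, robust fit, R 4.3.3) with adjustment over all genes tested and a threshold of 0.05. Lung, node and HPN primary samples shared a fit, and the primaries of both genotypes had their own. The scripts were tested on simulated data. DESeq2 1.42.0, other scalings, filters and sets of samples were alternatives.

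Lung 4 and lung 3 were set side by side with no test of the condition, by counts with a 95% exact conditional interval, and with 3 counts as the floor for a count of 0. Title numbers were read as the animal: samples of the same number were correlated in their deviations from group means at -0.0826 to 0.265 for nodes and HPN primaries, 0.0690 and 0.435 for lungs and HPN primaries, and 0.397 and -0.241 for lungs and nodes. HP and HPN primaries of the same number differ in genotype, so they are different animals, yet all 6 such pairs were correlated, at 0.104 to 0.6605; what the number marks there is not given in the sources used here. Upstream sequences came from RefSeq.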

Additional observations from a re-analysis of the deposited data

Results flagged for a closer look

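Within groups of 7 libraries, 6 of the 30 sets of values examined held 1 library far from the others. Chance gives about 1 in 20 for independent, normally distributed values, which these skewed CPM are not, and 3 of the 6 come from the same library. HP primary 9 was the highest HP primary for 3 surfactant protein genes: Sftpc had 7.09 CPM there and 1.28 CPM in the next library, Sftpb 1.95 and 0.488 CPM, and Sftpa1 1.58 and 0.183 CPM. The same library had the most counts of the 4 surfactant genes outside lung 4. Ager stood at 6.46 CPM in HPN primary 3, with 2.69 CPM in the next HPN primary. Slc34a2 was set apart in both groups of primaries, at 29.5 CPM in HPN primary 1 (7.34 CPM next) and at 69.5 CPM in HP primary 6 (26.0 CPM next). These 2 libraries also had the highest keratinocyte sums of their groups, 13134 and 26866 CPM. The part of the keratinocyte genes in these values was not tested.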

How the results depend on the processing

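Lung calls rest on 1 library and few samples, and members near 0 counts give wide errors. Without 1 sample in turn, calls among all genes ran from 0 to 393 for lung against HPN primary, 0 to 2017 for lung against node and 2731 to 5333 for node against HPN primary, and among the 10 genes from 0 to 9, 0 to 8 and 1 to 3. In lung against HPN primary, the log2 difference ran from -3.0 to 11.54 for Sftpc, -6.03 to 11.93 for Sftpb, -1.69 to 12.14 for Sftpa1, -4.20 to 10.86 for Lamp3, -5.30 to 7.31 for Slc34a2, -2.21 to 4.53 for Napsa, -4.54 to 3.56 for Hopx, 0.18 to 7.16 for Ager and 0.65 to 3.95 for Rtkn2, each lowest without lung 4. Against nodes it ran from -3.07 to 11.53, -6.22 to 11.85, -2.10 to 11.82, -8.10 to 6.96, -0.77 to 11.57, -5.83 to 0.93 and -3.60 to 4.54 for Sftpc, Sftpb, Sftpa1, Lamp3, Slc34a2, Napsa and Hopx in that order, and from -0.27 to 6.72 for Ager. Between genotypes it ran from -1.26 to 0.15 for Hopx and -0.081 to 0.27 for Rtkn2.

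For lung against HPN primary (51 genes called, 5 of them members), DESeq2 called 352 genes and 8 members, no filter gave 138 genes, a filter of over 1 CPM gave 12 and 3, 1 fit of all 4 groups gave 89 genes, libraries with a low-quality entry of 0 gave 1 and 0, and the keratinocyte covariate, added after the data were seen, left 2 members. For lung against node (966 genes, 7 members), DESeq2 called 2467 genes and 8 members, libraries with a low-quality entry of 0 gave 0 and 0, and that entry as a term gave 263 and 3. For node against HPN primary (4313 genes, 2 members), libraries with a low-quality entry of 0 gave 1542 and 0, and the keratinocyte covariate left 1 member. With title number as a replicate block, calls were 0 genes and 0 members in both lung comparisons and 1307 genes and 0 members between nodes and HPN primaries, and 0 as before between genotypes.

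Direction turned for Hopx between nodes and HPN primaries under the block (log2 0.16), for Slc34a2 (1.30) and Hopx (1.76) there and Hopx between genotypes (0.22) with the keratinocyte covariate, and for Napsa between lung and node among libraries with a low-quality entry of 0 (0.14). The cause was not tested.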
